A study of Mus musculus with 24 samples.

Results

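The genes described here come mostly from families with members that build the outer layers of skin. These are keratins and keratin-associated proteins, precursors and enzymes of the cornified envelope, desmosome proteins, kallikreins, S100a genes, claudins, connexins and Serpinb genes. The genes were chosen by symbol, as all genes whose single symbol in the platform annotation started with Krt, Sprr, Lce, Klk, Dsg, Dsc, Pkp, Tgm, S100a, Cldn, Gjb or Serpinb or was Dsp, Jup, Flg, Ivl, Evpl or Ppl. Krt10, Krt71, Klk5, Cldn1, S100a8 and Serpinb2, all 6 of which were measured, were set aside by the same rule. This gave 54 genes of the 5908 with a symbol, read by 55 probes, and 8750 features were tested in all. The 54 genes were 14 keratins, 6 keratin-associated proteins, 6 cornified envelope genes, 2 desmosome genes, 6 kallikreins, 6 S100a genes, 8 claudins and connexins, 4 Serpinb genes and, from another family, Krtcap2 and Krtcap3. Dsg, Dsc, Dsp, Flg, Ivl and Evpl matched no annotated probe used here, so the desmosome was represented by Jup and Pkp4 alone.

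Lung and skin came from females of 3 inbred mouse strains, C3H/HeMs, C57BL/6J and A/J, aged 12 to 13 weeks. Non-irradiated mice served as controls, and other mice were killed 1 h, 12 h or 72 h after a local dose of gamma rays. Lung was irradiated through the thorax with 10 Gy and skin on the hind leg with 30 Gy. Every one of the 24 arrays held RNA pooled from 3 mice of 1 strain, tissue and time, so that a group of 3 arrays held 1 pool of each strain. Strain levels were fitted, so p-values for irradiation measured how far changes differed between pools of different strains. Each pool was hybridised on a cDNA array against a common reference of RNA mixed from 10 organs. The comparisons ask how the genes chosen by this rule respond in irradiated skin and in irradiated lung, and how they vary between strains.

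Keratins pair into the intermediate filaments of epithelial cells, and different pairs mark basal cells, differentiating cells, wounded epidermis, simple epithelia and the hair shaft, where keratin-associated proteins cross-link them. In the uppermost epidermis, transglutaminases join small proline-rich and late cornified envelope proteins into the cornified envelope, and kallikrein proteases loosen the desmosomes that hold the dead cells together. Claudins seal tight junctions and connexins form gap junctions between neighbouring cells.

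Values are log2 ratios of sample over reference, centred on the median of each array, so that 1 unit is a 2-fold step and 0 is the level of the reference. They show how a gene differs between arrays and not which of 2 genes is the more abundant. Deposited ratios stopped at a limit of 6.64 on the log2 scale, and a gene at this limit has only a lower bound. After centring, skin values of the 54 genes at this limit lay between 6.66 and 6.78. Of the 54 genes, Krt79, Sprr1a, Krtap3-3, Krtap14, Krtap19-9b, Krtap22-2, Krt33b and Serpinb5 reached it on 1 to 9 skin arrays, and Klk1 reached the lower limit on 1 lung array. Strains are given in the order A/J, C57BL/6J, C3H/HeMs where 3 values stand together. Among lung arrays, 4 differed from the rest, namely A/J and C3H/HeMs at 12 h and again at 72 h. They held 115 to 674 ratios of exactly 0, against 1 to 23 on the remaining 8, and over all features they correlated with those at 0.796 to 0.887, against 0.898 to 0.959 among the 8. Lung changes of single genes at these times are therefore given with each strain's value. Markers of both tissues were at their labelled place: 8 lung epithelial genes, surfactant and secretoglobin genes among them, averaged 1.44 to 2.25 in control lung and -2.96 to -2.33 in control skin, and 10 barrier genes that the rule did not take averaged 3.44 to 3.63 in control skin and -0.56 to -0.38 in control lung.

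In non-irradiated tissue most of these genes were higher in skin. By limma, 35 of the 54 were higher in skin than in lung, against 36.4% of all features, 7 were higher in lung, against 23.6%, and 12 were not called. The median difference over the 54 was 1.63 on the log2 scale, beside 0.24 over all features. Lung RNA carried 1 dye and skin RNA the other throughout, so tissue and dye cannot be told apart in this comparison. In bulk tissue, fewer cells of a type and less RNA per cell cannot be told apart either.

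**Figure D1:**
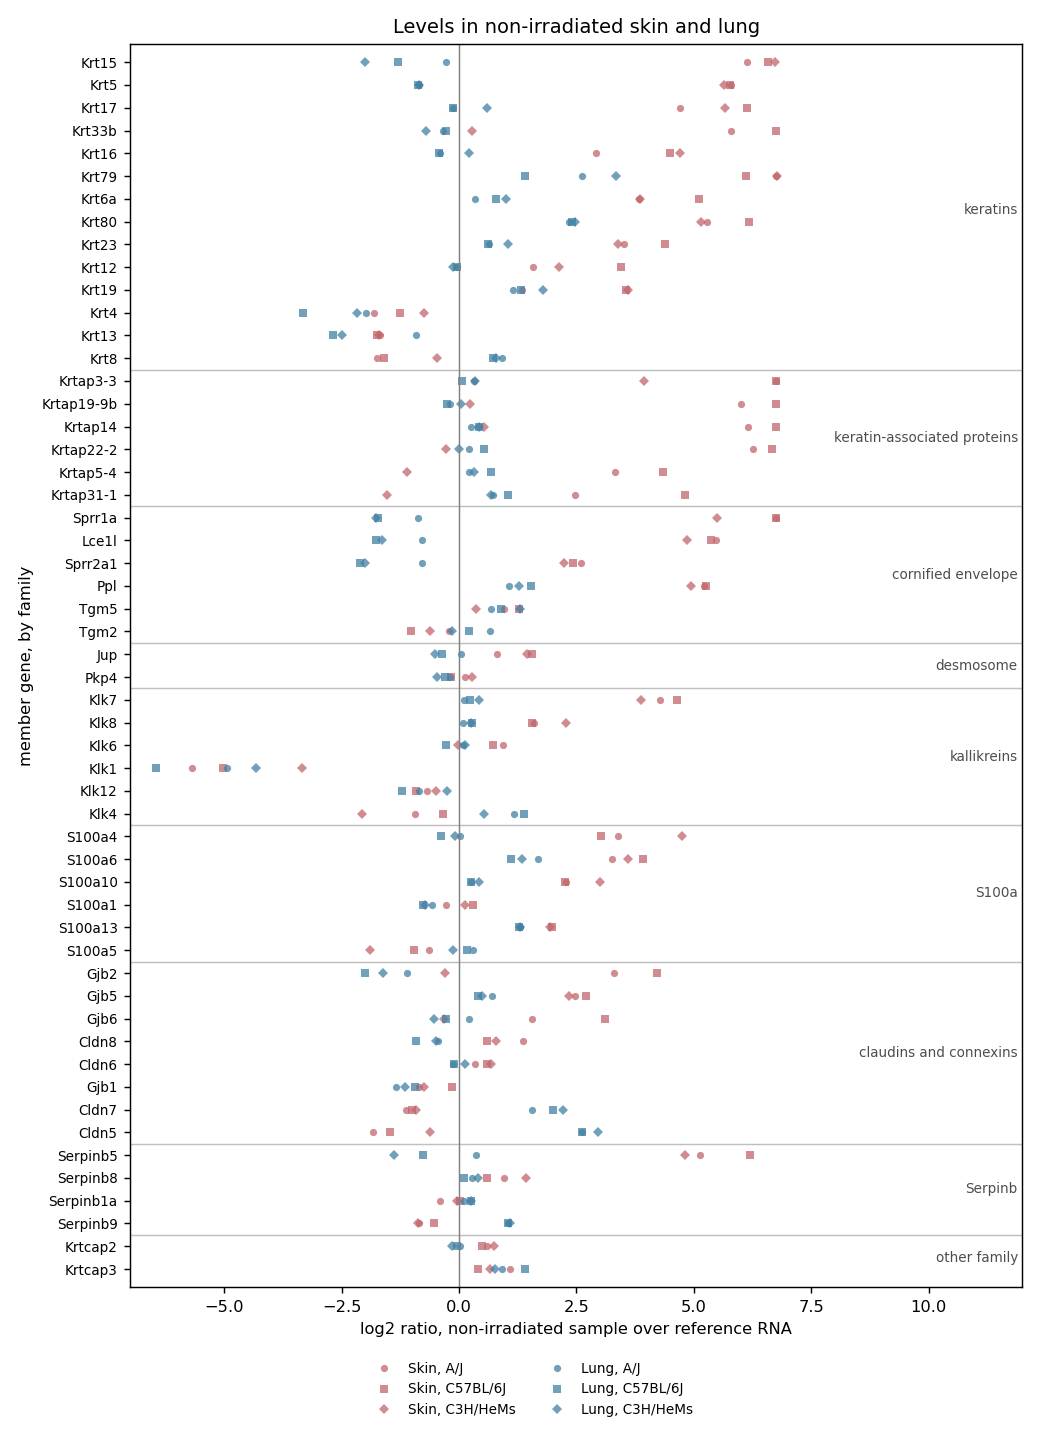
Log2 ratio of sample over reference (horizontal axis) of the 54 genes in the 3 non-irradiated skin pools (red) and the 3 non-irradiated lung pools (blue), 1 symbol per strain, with genes grouped by family and ordered by difference. Basal and wound keratins, Sprr1a and Lce1l lie far to the right in skin, while Cldn5, Cldn7, Krt8, Klk4 and Serpinb9 lie to the right in lung.

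Of the 14 keratins 12 were higher in skin, 1 was higher in lung and 1 was not called. Krt5, the type II keratin of basal keratinocytes, was at 5.64 in C3H/HeMs, 5.80 in A/J and 5.76 in C57BL/6J control skin and at -0.85, -0.88 and -0.86 in control lung. The 3 strains lay within a narrow band in each tissue, and the difference was 6.59 ± 0.21 (SE, limma, 3 pools per tissue, adjusted p = 3.96e-12). Krt15, another basal keratin that also marks hair follicle stem cells, differed by 7.69 ± 0.25 (adjusted p = 4.11e-12). Krt17, a keratin of follicles and wounds, differed by 5.38 ± 0.24 (adjusted p = 1.94e-10), and Krt6a, a partner of the wound keratins, by 3.56 ± 0.28 (adjusted p = 9.09e-08). Krt8, a keratin of simple epithelia, was the one higher in lung, with -1.74, -1.59 and -0.48 in control skin and 0.92, 0.73 and 0.79 in control lung (difference -2.08 ± 0.47, adjusted p = 0.00124, and 0.0516 without A/J). Krt13, a keratin of internal squamous lining, was not called, at -1.72 in skin and -2.03 in lung. Krt4, its partner, had a mean of -1.96 over the 12 skin arrays and -3.13 over the 12 lung arrays. Krt79, a keratin of the follicle opening, was between 5.31 and 6.78 in skin, where 9 of 12 arrays were at the limit, and averaged 2.70 in lung. Its control difference of 4.08 ± 0.32 became 1.31 with quantile scaling. Probes of closely related keratins such as Krt6a, Krt16 and Krt17 may share signal on a cDNA array.

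Of the 6 cornified envelope genes 4 were higher in skin, 1 was higher in lung and 1 was not called. Sprr1a, a small proline-rich precursor, was at 6.75, 6.75 and 5.50 in the A/J, C57BL/6J and C3H/HeMs control skin pools, the first pair at the limit, and at -0.87, -1.73 and -1.78 in lung. The difference between the group means was therefore at least 7.79, and its SE of 0.41 and limma adjusted p of 1.58e-09 were computed with these values at the limit. Lce1l, a late cornified envelope protein, differed by 6.64 ± 0.45 (adjusted p = 1.97e-08), and Ppl, the plakin periplakin that anchors keratins at the envelope, by 3.85 ± 0.29 (adjusted p = 5.24e-08, with a difference of 2.48 with quantile scaling). Tgm5, an epidermal form, was not called, at 0.87 in skin and 0.95 in lung, and Tgm2, the widely expressed tissue form, was higher in lung by a difference of -0.86 ± 0.31 (adjusted p = 0.0255, and 0.131 without C57BL/6J or 0.0857 without C3H/HeMs).

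Among the junction genes, Jup, the desmosomal plakoglobin, was higher in skin by 1.54 ± 0.19 (adjusted p = 8.18e-06), while Pkp4, a plakophilin relative, was not called (0.39 ± 0.17, adjusted p = 0.0625). The claudins divided between the tissues. Cldn5, the claudin of endothelial tight junctions, was at 2.61, 2.61 and 2.97 in control lung and -1.82, -1.47 and -0.62 in control skin (difference -4.03 ± 0.36, adjusted p = 3.59e-07), and the epithelial claudin Cldn7 differed by -2.94 ± 0.26 (adjusted p = 3.27e-07). Cldn8 and Cldn6 were higher in skin, and so were all 4 connexins: Gjb2, Gjb5, Gjb6 and Gjb1.

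The remaining families held both skin and lung genes. Klk7, a protease of the cornified layer, was higher in skin by 4.01 ± 0.30 (adjusted p = 5.24e-08) and Klk8 by 1.60 ± 0.41, whereas Klk4 was higher in lung (-2.14 ± 0.40) and Klk1, Klk6 and Klk12 were not called. Klk1, the tissue kallikrein of glands, was far below the reference in both tissues, at a mean of -5.24 over the skin arrays and -5.55 over the lung arrays. Serpinb5, the epithelial serpin maspin, was higher in skin by 5.98 ± 0.37 (adjusted p = 7.37e-09), and Serpinb9, an inhibitor of granzyme B, was higher in lung (-1.81 ± 0.35). Of the S100a genes 4 were higher in skin, with S100a4 at 3.87 ± 0.34 (adjusted p = 2.79e-07), S100a5 was higher in lung (-1.28 ± 0.23) and S100a13 was not called. Of the 6 keratin-associated genes 4 were higher in skin, while Krtap5-4 (1.79 ± 1.13, adjusted p = 0.183) and Krtap31-1 (1.10 ± 1.02, adjusted p = 0.362) were not called. Krtcap2, a subunit of the oligosaccharyltransferase and no keratin, was higher in skin by 0.67 ± 0.17, and Krtcap3 was not called. Without 1 strain the count higher in skin was 25 to 32 and the count higher in lung 6.

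The 6 keratin-associated genes and Krt33b, a type I keratin of the hair shaft, were the least steady of the 54 in skin. All 7 were among the 50 features with the largest SD over the 12 skin arrays, of 8750, and the first 4 places of that ranking were held by Krtap22-2 (SD 2.93), Krtap19-9b (2.84), Krtap14 (2.80) and Krt33b (2.70). In lung none of the 54 was among the first 50. The median SD was 0.55 over the 54 and 0.40 over all features in skin, and 0.33 and 0.29 in lung.

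Krtap14 shows the range. It was at 0.52 in C3H/HeMs, 6.16 in A/J and 6.75 in C57BL/6J control skin, at 1.67, 6.41 and 6.78 at 1 h, at 6.77, 3.11 and 0.48 at 12 h, and at -0.22, 1.71 and 4.47 at 72 h. Krt33b was at 5.79, 6.75 and 0.27 in the same control pools, at 1.95, 5.13 and 6.18 at 1 h, at 6.52, 3.10 and -0.17 at 12 h, and at -0.60, 1.94 and 3.73 at 72 h. High and low pools occurred together among the controls, at 1 h and at 12 h, and each strain had both. Values at the limit, such as that of the C57BL/6J control, are lower bounds.

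**Figure D2:**
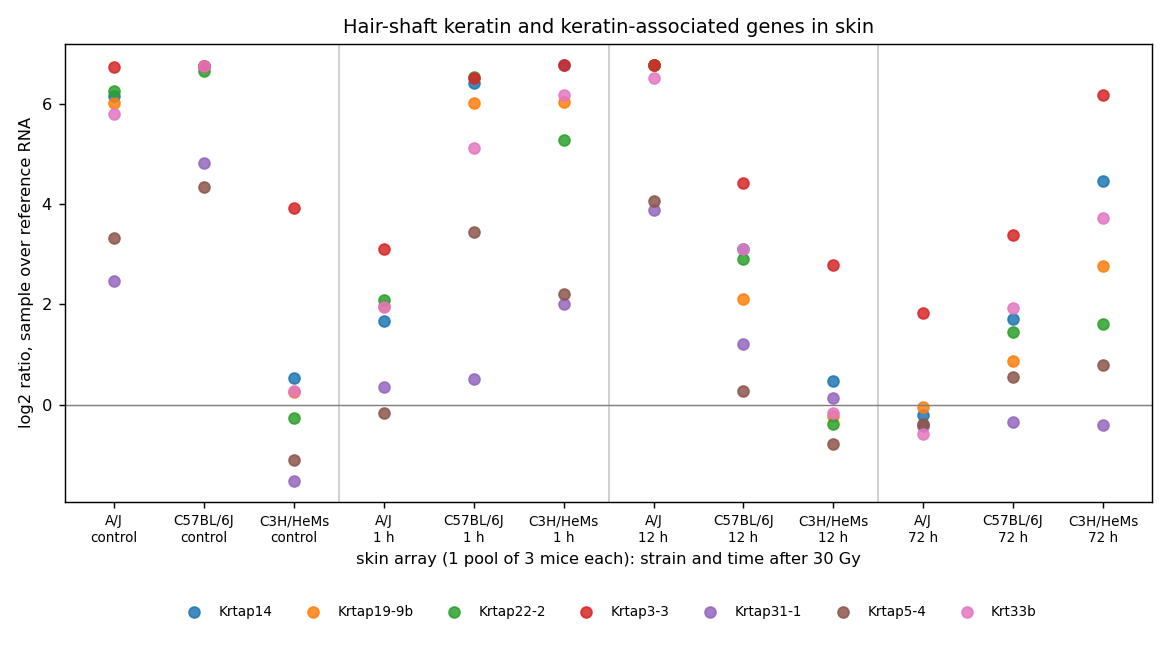
Log2 ratio of sample over reference (vertical axis) of the 6 keratin-associated genes and Krt33b on the 12 skin arrays, ordered by time and strain, 1 point per gene and array. Most of the 7 genes stand high on the control arrays of A/J and C57BL/6J, the 1 h arrays of C57BL/6J and C3H/HeMs and the 12 h array of A/J, with Krtap31-1 at 0.51 on the C57BL/6J 1 h array as an exception. Krtap3-3 stays above the others on the low arrays and reaches 6.17 on the C3H/HeMs 72 h array.

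The mean of the 6 keratin-associated genes lay between 4.85 and 6.02 on 5 skin arrays, namely the A/J and C57BL/6J controls, C57BL/6J and C3H/HeMs at 1 h and A/J at 12 h, and no 72 h array was among them. On the other 7 it lay between 0.05 and 2.57, with C3H/HeMs control at 0.30 and A/J at 72 h at 0.05 the lowest together with C3H/HeMs at 12 h at 0.33. In lung the same mean stayed between -0.13 and 0.48. Because the arrays fell into these 2 ranges, the relation to other genes was read within the lower one. Over its 7 arrays Krt33b followed the mean with Pearson's r = 0.99 (exact permutation p = 0.000595, two-sided) and Spearman's rho = 0.96 (exact permutation p = 0.00278). This relation was chosen after the values were seen, and several of the 7 arrays are pools of the same strain.

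The connexins Gjb2 and Gjb6, gap junction proteins of epidermis and follicle, stood next to Krt33b when the other 48 genes were ranked by their correlation with that mean over all 12 arrays. Gjb2 was at 3.29, 4.21 and -0.30 in the A/J, C57BL/6J and C3H/HeMs controls, at 0.88, 3.18 and 2.61 at 1 h, at 3.03, 1.39 and 1.64 at 12 h, and at 0.72, 1.76 and 1.54 at 72 h. It was between 2.61 and 4.21 on the 5 arrays with high keratin-associated genes and between -0.30 and 1.76 on the other 7. Gjb6 was between 1.56 and 3.12 on the 5 and between -0.32 and 1.33 on the 7. Both connexins were picked by this ranking and the arrays divided by the same mean, so that these ranges describe the choice and support no link. Within the 7 arrays a relation to the mean was not detectable (Gjb2 r = 0.49, exact permutation p = 0.268, and rho = 0.43, exact permutation p = 0.354; Gjb6 r = 0.60, exact permutation p = 0.157, and rho = 0.54, exact permutation p = 0.236).

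Markers of other compartments of a skin sample were uneven over the same arrays, and their part in the swings was not tested. The 11 measured skeletal muscle genes averaged -0.85 to 1.69 in the 3 control pools, -1.04 to 1.37 at 1 h, -1.17 to 0.08 at 12 h and -0.60 to 0.15 at 72 h. The 6 adipocyte genes averaged 0.91 to 1.28, 0.74 to 1.53, 0.43 to 3.04 and 0.89 to 1.61 at these times. The 7 hair follicle genes outside the families (Crym, Eda, Gli1, Gli2, Padi4, Ptch1 and Sox9) averaged 0.87 to 1.47 in control skin, 0.49 to 1.53 at 1 h, 0.21 to 1.18 at 12 h and 0.60 to 1.21 at 72 h.

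Because the hair-shaft genes moved together in skin, their promoters are shown beside those of the connexins Gjb2 and Gjb6, as the 100 bases before the annotated start of each gene, read 5′ to 3′ on the gene's strand, from RefSeq on GRCm38.p6. Capitals mark the letters TATAA, the core of a TATA box, where they lie in the last 50 bases.
Krtap14, chr16:88826146-88826245, minus strand: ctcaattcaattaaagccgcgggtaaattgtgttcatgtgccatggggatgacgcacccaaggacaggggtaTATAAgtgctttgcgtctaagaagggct
Krtap19-9b, chr16:88932265-88932364, minus strand: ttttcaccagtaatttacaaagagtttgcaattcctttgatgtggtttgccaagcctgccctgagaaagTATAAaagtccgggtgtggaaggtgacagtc
Krtap22-2, chr16:89010760-89010859, minus strand: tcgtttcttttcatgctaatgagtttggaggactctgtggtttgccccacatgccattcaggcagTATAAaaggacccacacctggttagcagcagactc
Krtap3-3, chr11:99550864-99550963, minus strand: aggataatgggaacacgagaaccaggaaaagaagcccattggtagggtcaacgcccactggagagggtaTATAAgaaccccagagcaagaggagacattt
Krtap31-1, chr11:99907820-99907919, plus strand: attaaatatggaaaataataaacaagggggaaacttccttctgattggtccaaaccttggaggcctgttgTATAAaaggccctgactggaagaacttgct
Krtap5-4, chr7:142303402-142303501, plus strand: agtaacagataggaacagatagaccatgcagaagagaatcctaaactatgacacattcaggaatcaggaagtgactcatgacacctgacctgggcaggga
Krt33b, chr11:100029869-100029968, minus strand: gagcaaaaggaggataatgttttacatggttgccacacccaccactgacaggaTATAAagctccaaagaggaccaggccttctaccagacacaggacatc
Gjb2, chr14:57104703-57104802, minus strand: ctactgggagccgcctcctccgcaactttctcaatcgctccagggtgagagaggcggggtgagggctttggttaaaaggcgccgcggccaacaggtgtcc
Gjb6, chr14:57133612-57133711, minus strand: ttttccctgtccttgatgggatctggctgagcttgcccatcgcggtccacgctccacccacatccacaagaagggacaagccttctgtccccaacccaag

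The letters TATAA lay within 50 bases before the start in 6 of the 7 hair-shaft genes, with Krtap5-4 as the exception, and in neither connexin. In Krtap14, Krtap19-9b, Krtap22-2, Krtap3-3 and Krtap31-1 their first base was 28 to 35 bases before the start, and in Krt33b it was 47. RefSeq promoters were held for 42 of the 54 genes, and 11 of these (26.2%) had TATAA in that window, against 5.89% of 27025 genes in the table. Its complement TTATA was in 0 of the 7, in 2 of the 42 and in 3.27% of all genes. The AP-1 type letters TGANTCA, which read as the same motif on both strands, were searched over 250 bases before the start and lay in 6 of the 42 (14.3%: Krt13, Krtap31-1, Krtap5-4, Serpinb5, Serpinb8 and Sprr1a), against 7.82% of all genes. A match describes the letters and not a site in use.

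After irradiation of skin none of the 54 genes passed the test at any time. By limma with adjustment over all features, 0 of 54 were called at 1 h, 12 h and 72 h, as were 0% of all features at each time. With an unadjusted p under 0.05 there were 5 of the 54 at 1 h (2 higher, 3 lower; 4.37% of all features), 6 at 12 h (3 higher, 3 lower; 6.71%) and 6 at 72 h (4 higher, 2 lower; 7.39%). No gene of the 54 had a change of at least 2-fold in 1 direction in all 3 strains at 1 h (0.126% of all features), 12 h (0.297%) or 72 h (0.263%). The median change over the 54 was 0.07 at 1 h, -0.16 at 12 h and -0.20 at 72 h, beside -0.05, -0.03 and -0.01 over all features. The 9 measured p53 target genes, a check of irradiation, had median changes of 0.70, 1.17 and 0.91 in skin, where 0 were called by limma and 5, 5 and 6 had an unadjusted p under 0.05. The values of the leading genes that follow are descriptions and not calls. Where irradiated pools are said to lie apart from the controls, in skin or in lung, the share of all features that did so was not counted.

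**Figure D3:**
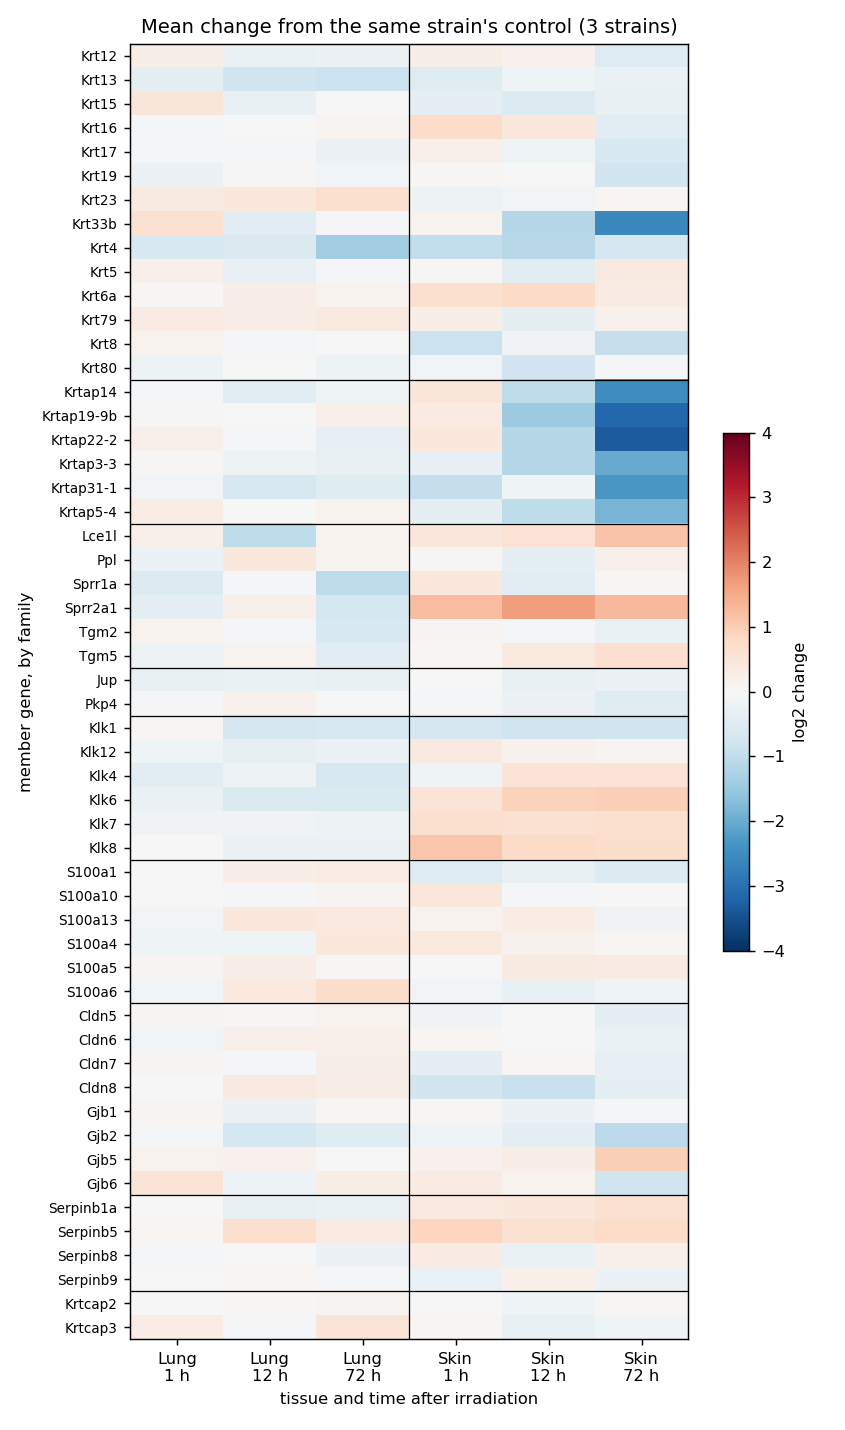
Mean log2 change from the same strain's non-irradiated pool over 3 strains (colour, red higher and blue lower) of the 54 genes, by family, in lung and skin at 1 h, 12 h and 72 h. The keratin-associated genes and Krt33b at 72 h in skin have the lowest means, from -3.34 to -1.87, with none called.

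At 72 h in skin the hair-shaft genes had the lowest means and errors of 1.28 to 2.14. At 72 h in skin the 6 keratin-associated genes lay between -3.34 and -1.87. Krtap22-2 had a change of 1.89 in C3H/HeMs, -6.68 in A/J and -5.23 in C57BL/6J (mean -3.34 ± 1.89 SE, adjusted p = 0.679). The strains differed in direction, and the C3H/HeMs control pool was itself among the lowest arrays. At 1 h the same gene had changes of -4.19, -0.13 and 5.56.

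Krt4, the keratin of internal squamous lining, was at -1.82, -1.25 and -0.76 in the A/J, C57BL/6J and C3H/HeMs control skin, at -2.36, -2.14 and -2.26 at 1 h, at -2.03, -2.16 and -2.95 at 12 h, and at -1.53, -2.08 and -2.20 at 72 h. All 6 pools at 1 h and 12 h were below the 3 controls, with changes of -0.98 ± 0.34 (adjusted p = 1.0) and -1.11 ± 0.34 (adjusted p = 0.604). Without the C3H/HeMs control these became -0.58 and -0.71, and without the strain the 12 h value became -0.56. Its level was below the reference throughout. Krt6a, the wound keratin, had a change of 0.65 at 1 h, with all 3 strains between 0.50 and 0.79, and of 0.76 ± 0.34 at 12 h (adjusted p = 0.734), where C3H/HeMs was at 1.74 and the other strains at 0.22 and 0.33.

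Of the 6 cornified envelope genes, 1, 1 and 3 were higher in all 3 strains at 1 h, 12 h and 72 h. Over all features these shares were 11%, 10.3% and 14.7%. None of the 6 was lower in all 3 strains, beside 18.2%, 15.7% and 15.4% of all features. The medians over the 6 were 0.26, 0.17 and 0.44. Means of single genes ran from 0.03 to 1.24 at 1 h, from -0.43 to 1.68 at 12 h and from -0.26 to 1.31 at 72 h. Sprr2a1, a small proline-rich protein, was at 2.59, 2.43 and 2.24 in control skin, at 3.40, 3.93 and 3.65 at 1 h, at 4.12, 2.99 and 5.18 at 12 h, and at 3.01, 5.32 and 2.85 at 72 h. All 9 irradiated pools were above the 3 controls. The changes of 1.24 ± 0.67, 1.68 ± 0.67 and 1.31 ± 0.67 had adjusted p = 1.0, 0.693 and 0.669 and the strains ranged from 0.41 to 2.94. The cDNA probe of Sprr2a1 may also read other members of the Sprr2 cluster.

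Lce1l was at 5.47, 5.38 and 4.86 in control skin and at 6.29, 6.47 and 6.38 at 72 h. The groups did not overlap, and the change of 1.15 ± 0.33 had adjusted p = 0.65, and was 0.74 with quantile scaling. Tgm5 had a change of 0.66 ± 0.28 at 72 h (adjusted p = 0.664), with 0.19 in C3H/HeMs, 0.70 in A/J and 1.09 in C57BL/6J. Sprr1a had means of 0.42, -0.43 and 0.07 and could not be read for a rise, since 2 of its 3 control pools were at the limit.

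Gjb5, a connexin of the epidermis, gave the smallest unadjusted p of the 54 at 72 h. It was at 2.47, 2.71 and 2.35 in control skin, at 2.93, 2.48 and 2.64 at 1 h, at 2.91, 2.64 and 2.73 at 12 h, and at 3.09, 3.52 and 3.80 at 72 h. The 72 h pools lay above all other skin pools, and the change was 0.96 ± 0.24 (adjusted p = 0.65). Cldn8, a claudin of tight epithelia, was at 1.37, 0.60 and 0.79 in control skin, at 0.27, 0.12 and 0.20 at 1 h, and at 1.00, -0.41 and -0.53 at 12 h. Its 1 h pools were all below the controls, and its changes were -0.72 ± 0.28 at 1 h (adjusted p = 1.0, and -0.48 without the A/J 1 h array) and -0.90 ± 0.28 at 12 h (adjusted p = 0.604). At 72 h it was at 0.81, 0.36 and 0.50.

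Of the kallikreins, Klk6 and Klk1 had mean changes of opposite sign at all 3 times. Klk6, a serine protease of keratinocytes and brain, was at 0.93, 0.72 and -0.02 in control skin, at 0.81, 1.89 and 1.75 at 12 h, and at 1.01, 1.88 and 1.57 at 72 h. C57BL/6J and C3H/HeMs were above their controls by 1.16 and 1.77 at 12 h, whereas A/J was at -0.12 (mean 0.94 ± 0.32, adjusted p = 0.612). Klk1 had a change of -0.66 ± 0.27, -0.80 ± 0.27 and -0.78 ± 0.27 at 1 h, 12 h and 72 h (adjusted p = 1.0, 0.612 and 0.664). By strain, its changes were -0.11, -0.99 and -0.87 at 1 h, -0.55, -0.99 and -0.85 at 12 h, and 0.02, -0.96 and -1.42 at 72 h. Klk8, a protease of the upper epidermis, had a change of 1.11 ± 0.47 at 1 h (adjusted p = 1.0), with 1.99 in C57BL/6J, 1.47 in C3H/HeMs and -0.13 in A/J.

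Serpinb5 was at 5.13, 6.21 and 4.81 in control skin and at 6.32, 6.06 and 6.37 at 1 h, which set A/J and C3H/HeMs above their controls and C57BL/6J below (0.87 ± 0.36, adjusted p = 1.0). S100a1, a calcium sensor of muscle, was at -0.29, 0.30 and 0.12 in control skin and at -0.49, -0.66 and -0.34 at 72 h, with no overlap (-0.54 ± 0.24, adjusted p = 0.664). The desmosome genes Jup and Pkp4 were at -0.24 and -0.47 at 72 h without a call.

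**Figure D4:**
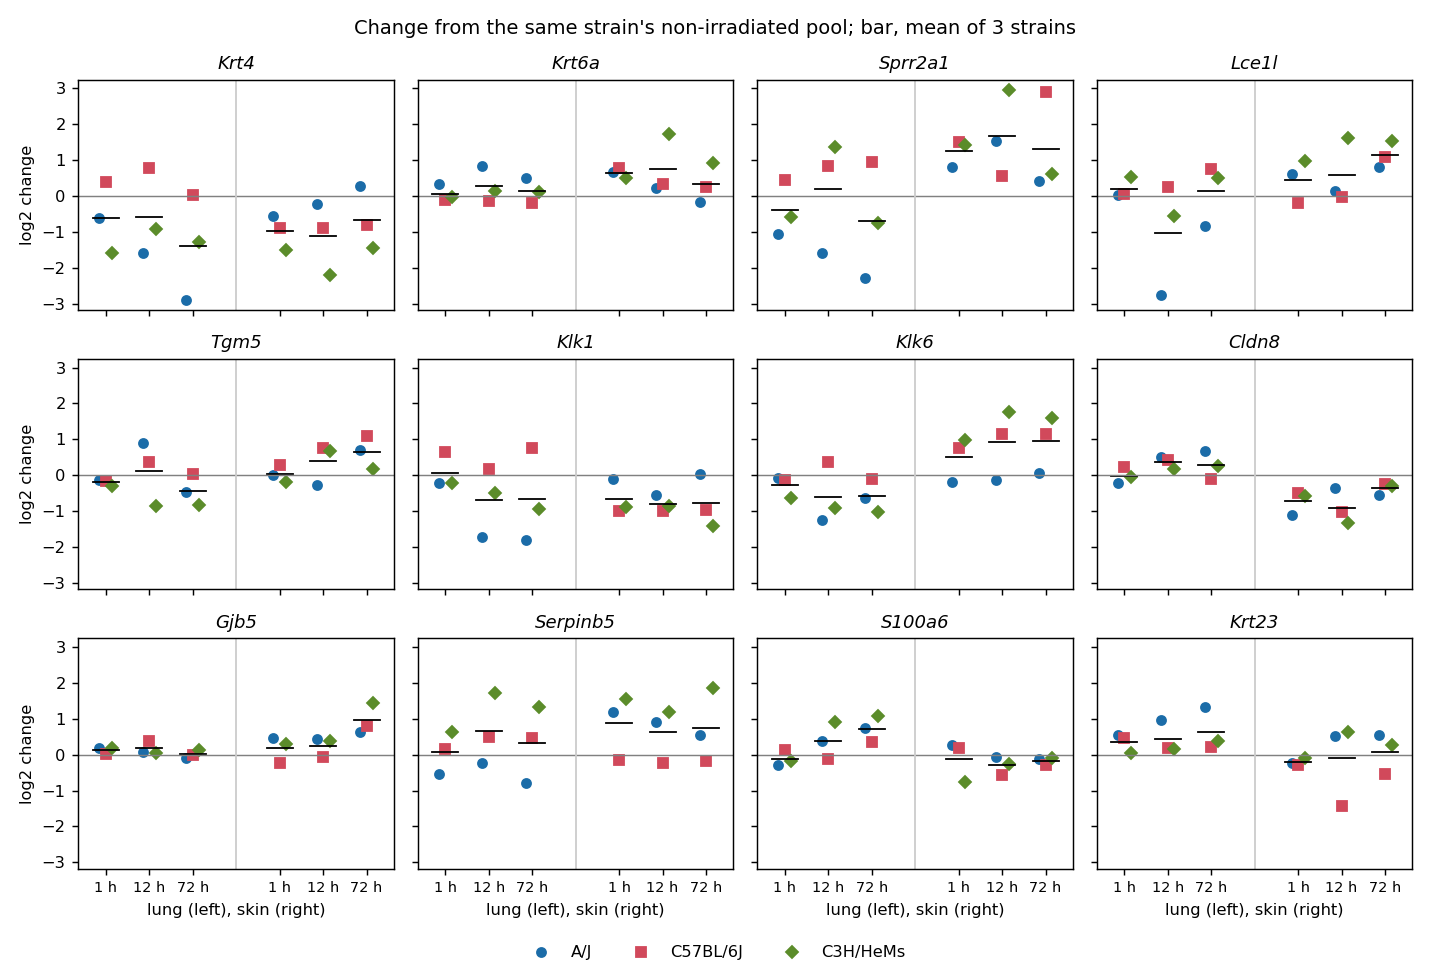
Log2 change from the same strain's non-irradiated pool (vertical axis) of 12 genes in lung (left of each panel) and skin (right) at 1 h, 12 h and 72 h, with 1 symbol per strain and a bar at the mean of 3 strains. Sprr2a1 is above 0 in all 9 irradiated skin pools, Gjb5 and Lce1l are above 0 in all 3 strains at 72 h, and lung values of Krt4, Klk1 and Lce1l are spread widely between strains.

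In irradiated lung none of the 54 passed either, while 1, 3 and 3 of the 9 p53 target genes did at 1 h, 12 h and 72 h. By limma 0 of 54 were called at 1 h (0.0114% of all features), 12 h (0.114%) and 72 h (0.114%). With an unadjusted p under 0.05 there were 3 of the 54 at 1 h (3 higher; 2.24% of all features), 3 at 12 h (3 lower; 12.1%) and 5 at 72 h (2 higher, 3 lower; 12.4%). No gene of the 54 had a change of at least 2-fold in 1 direction in all 3 strains (0.0343%, 0.171% and 0.251% of all features at the 3 times). The medians over the 54 were -0.01, -0.06 and -0.02, beside -0.01, 0.07 and 0.05 over all features.

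At 1 h the leading genes were Gjb6 and Krt33b. Gjb6 was at 0.21, -0.29 and -0.53 in control lung and at 0.41, 0.28 and 0.28 at 1 h, with all 1 h pools above the controls (0.53 ± 0.16, adjusted p = 1.0). Krt33b was at -0.34, -0.28 and -0.70 in control lung and at -0.12, 0.66 and -0.03 at 1 h (0.61 ± 0.22, adjusted p = 1.0). Its lung levels stayed between -1.39 and 0.66.

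At 12 h Krtap31-1 was at 0.10, 0.48 and -0.06, below its controls of 0.73, 1.05 and 0.68 in every strain (-0.65 ± 0.23, adjusted p = 0.366). Without the 4 arrays that differed from the rest, which left only the C57BL/6J pool at 12 h, it was -0.35. With a block for the 4 arrays, where the change also rested largely on C57BL/6J, it was -0.42. Krtap14 had a change of -0.89, -0.07 and -0.42 (-0.46 ± 0.19, adjusted p = 0.391), which was -0.04 without those 4 arrays, -0.20 with the block, -0.23 without the A/J 12 h array and -0.24 without A/J, and Gjb2 of -0.74 in C3H/HeMs, -1.42 in A/J and 0.06 in C57BL/6J (-0.70 ± 0.29, adjusted p = 0.4).

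At 72 h S100a6, calcyclin, was at 2.42, 1.45 and 2.41, against 1.68, 1.11 and 1.34 in control lung, and was higher in each strain though the groups overlapped (0.71 ± 0.24, adjusted p = 0.354). Krt23, a small type I keratin, was at 1.95, 0.85 and 1.42 against 0.63, 0.62 and 1.05 (0.64 ± 0.22, adjusted p = 0.354). Sprr1a was at -2.77, -1.57 and -3.04 against -0.87, -1.73 and -1.78 (-1.01 ± 0.36, adjusted p = 0.354), and Krt4 at -4.87, -3.30 and -3.45 against -1.98, -3.32 and -2.17 (-1.38 ± 0.53, adjusted p = 0.365). For Sprr1a and Krt4 the lower values were those of A/J and C3H/HeMs, whose 72 h arrays were among the 4 that differed from the rest, and C57BL/6J had changes of 0.16 and 0.02. For S100a6 and Krt23 C57BL/6J had changes of 0.34 and 0.22. Without the 4 arrays, which left only the C57BL/6J pool at 72 h, S100a6 and Krt23 were at 0.22 and 0.16. With a block for the 4 arrays, where the change also rested largely on C57BL/6J, they were at 0.16 and 0.24. Krt23 was also at 0.40 without the A/J control, 0.41 without the A/J 72 h array and 0.30 without A/J. Genes of the squamous lining of airway and oesophagus, 5 of 7 of which belong to the 54, averaged -1.07 to -0.49 in control lung and -1.30 to -0.96 at 72 h, and how much of such lining each lung sample held was not tested.

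The test of skin response against lung response called 0 of 54 genes by limma at 1 h, 12 h and 72 h, as it did 0% of all features at each time. With an unadjusted p under 0.05 there were 1 at 1 h (2.01% of all features), 3 at 12 h (8.42%) and 7 at 72 h (12.8%). Krt15 was at -0.37 in skin and 0.50 in lung at 1 h (difference -0.86 ± 0.35, adjusted p = 1.0). At 12 h Cldn8 was at -0.90 in skin and 0.37 in lung (-1.27 ± 0.35), Klk6 at 0.94 and -0.59 (1.53 ± 0.45) and Lce1l at 0.57 and -1.02 (1.59 ± 0.64), with adjusted p from 0.531 to 0.563. By strain, the lung changes were 0.52, 0.41 and 0.18 for Cldn8, -1.23, 0.37 and -0.91 for Klk6 and -2.76, 0.25 and -0.55 for Lce1l. The lower lung values of Klk6 and Lce1l were thus those of A/J and C3H/HeMs, whose 12 h arrays differed from the rest. At 72 h the smallest p was that of Gjb5 (0.95 ± 0.27, adjusted p = 0.367), followed by Klk6, S100a1, Serpinb1a, Tgm5, S100a6 and Klk4. Gjb5 was changed in skin by 0.96 and in lung by 0.01 (-0.10, -0.01 and 0.14 by strain). Doses differed between the tissues, so these values set a lung at 10 Gy beside a skin at 30 Gy.

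In lung the F test of strain called 2 of 54 genes, against 2.95% of all features, and in skin 1 of 54, against 0.377%. With an unadjusted p under 0.05 there were 14 of 54 in lung and 12 in skin, beside 23.7% and 19.1% of all features, so that the shares of the 54 were near those of all features. Each strain is 4 pools at 4 times in a tissue, so these p-values rest on the spread over times.

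Krt79 in lung was at 1.41, 1.85, 1.34 and 1.13 in C57BL/6J at control, 1 h, 12 h and 72 h. It was at 2.63, 2.80, 3.60 and 3.92 in A/J and at 3.35, 3.68, 3.20 and 3.43 in C3H/HeMs. All 4 C57BL/6J pools were below the 8 others (adjusted p = 0.0144). The call was lost without the C57BL/6J control (0.0516), 12 h (0.077) or 72 h (0.0707) array. In skin Krt79 was at the limit on 9 of 12 arrays, so its strains could not be compared there.

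Krt15 in lung was at -0.29, -0.36, -1.03 and -0.44 in A/J, at -1.31, -0.57, -1.27 and -1.43 in C57BL/6J and between -2.14 and -1.17 on the 4 C3H/HeMs arrays. Its means of -0.53, -1.15 and -1.75 put A/J above C57BL/6J and C57BL/6J above C3H/HeMs, with overlap between neighbours (adjusted p = 0.0247). The call was lost, at adjusted p of 0.051 to 0.0697, without any 1 of 7 arrays: the control array of each strain, A/J at 72 h, and C3H/HeMs at 1 h, 12 h and 72 h.

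Klk1 in skin was at -3.33, -4.21, -4.18 and -4.75 in C3H/HeMs, against -5.68, -5.80, -6.23 and -5.66 in A/J and -5.02, -6.01, -6.02 and -5.98 in C57BL/6J. All 4 C3H/HeMs pools were above the 8 others (adjusted p = 0.0339). In lung, C3H/HeMs had the highest mean as well, at -4.73 against -5.87 in A/J and -6.06 in C57BL/6J, without a call (adjusted p = 0.106). The skin call was lost, at adjusted p of 0.0702 to 0.112, without the control or 1 h array of any strain or the C57BL/6J 12 h or 72 h array. Klk1 lies in a cluster of close relatives, which a cDNA probe may read together.

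**Figure D5:**
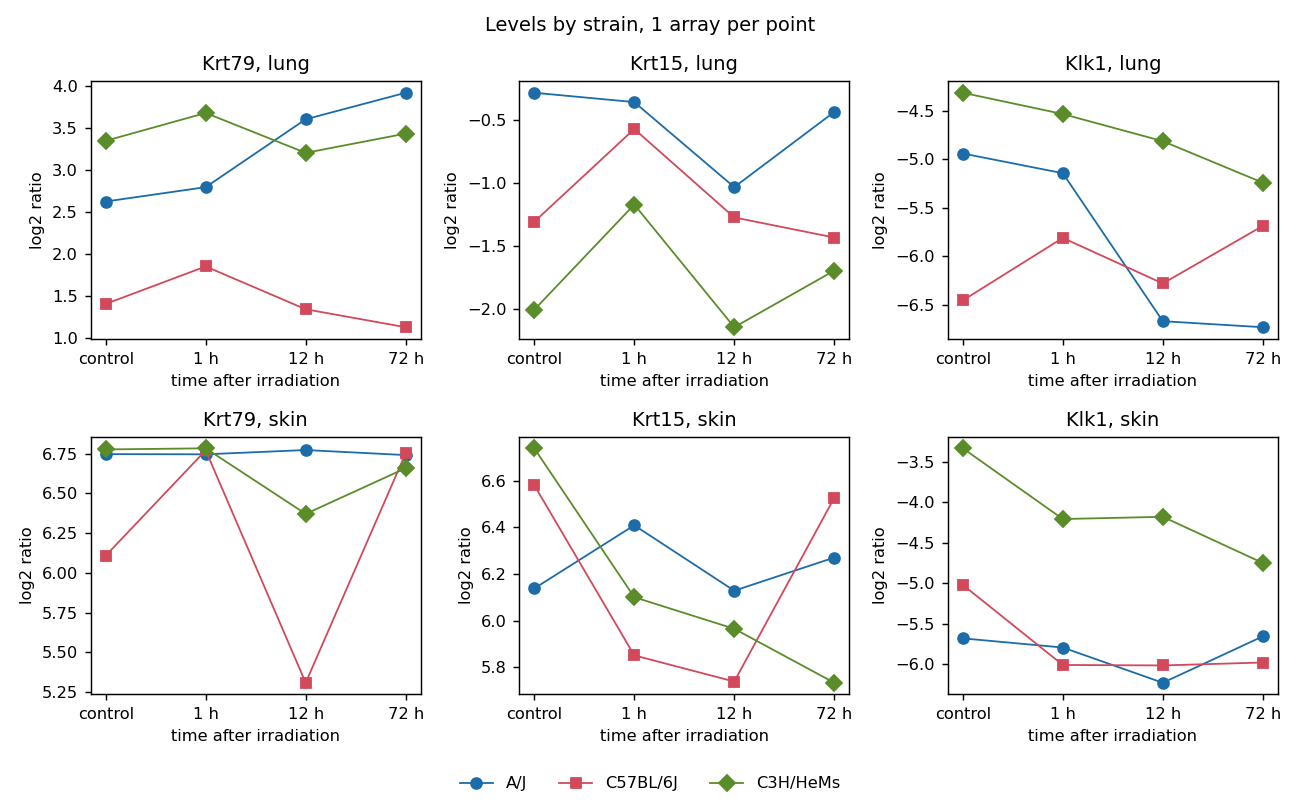
Log2 ratio of sample over reference (vertical axis, scaled separately in each panel) of Krt79, Krt15 and Klk1 in lung (top) and skin (bottom) by time after irradiation, with 1 array per point and lines that join the separate pools of a strain. C57BL/6J lies lowest for Krt79 in lung, and C3H/HeMs lies highest for Klk1 in skin at every time.

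Some keratins that did not pass the strain test in skin were chosen after their values were seen. Krt16, a wound keratin, was at 2.92, 3.02, 2.95 and 3.00 in A/J, at 4.50, 6.40, 4.96 and 5.88 in C57BL/6J and at 4.70, 4.95, 5.50 and 1.86 in C3H/HeMs at control, 1 h, 12 h and 72 h (adjusted p = 0.163). Krt19, a keratin of simple epithelia and follicles, was at 3.58 to 3.75 in C3H/HeMs, 1.33 to 1.61 in A/J and 3.18 to 3.56 in C57BL/6J up to 12 h, with the C3H/HeMs 72 h pool at 1.25 (adjusted p = 0.109). The C3H/HeMs pool at 72 h was thus near the A/J pools for Krt19, and within their range for Krt17 at 4.65 and Krt12 at 1.47. For Krt16, at 1.86, it lay below every A/J pool. For Krt6a, at 4.77, it lay above every A/J pool, the highest of which was at 4.50. For Klk1, at -4.75, it lay above every A/J pool, the highest of which was at -5.66. For Tgm5, at 0.55, it lay below every A/J pool. Whether its label is right was not tested, and every 72 h skin mean includes it: without it Gjb5 was at 0.76, Lce1l at 1.21 and the median of the 54 at -0.04. By strain mean in skin, A/J was lowest and C57BL/6J highest for Krt16, Krt19, Krt6a, Krt12, Krt17 and Krt8. The means were 4.02, 5.45 and 4.64 for Krt6a, 1.51, 3.15 and 2.43 for Krt12, and 4.75, 5.77 and 5.54 for Krt17. None of these passed the F test of strain. Krt4, Krt5, Krt13, Krt15, Krt23, Krt33b, Krt79 and Krt80 had another order, with means of 6.24, 6.17 and 6.13 for Krt15. Tgm5 was at 0.16 to 1.05 in C3H/HeMs, 0.68 to 1.66 in A/J and 1.28 to 2.37 in C57BL/6J (adjusted p = 0.0953).

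Other genes of the epidermal barrier, which the symbol rule did not take, gave 0 calls by limma in skin at each time. Of 10 measured cornified envelope and lipid barrier genes, 3 had an unadjusted p under 0.05 and a higher mean at 1 h, 2 higher and 1 lower at 12 h, and 2 higher at 72 h, beside 4.37%, 6.71% and 7.39% of all features. Their median change was 0.41 at 1 h, 0.24 at 12 h and 0.22 at 72 h in skin and -0.10, 0.03 and -0.16 in lung, where 3 and 2 were lower at 12 h and 72 h by that measure, beside 12.1% and 12.4% of all features, and none was called. Alox12b, a lipoxygenase of the lipid envelope, had a change of 1.22 ± 0.32, 1.11 ± 0.32 and 0.90 ± 0.32 at the 3 times in skin (adjusted p = 1.0, 0.52 and 0.664). Lor, loricrin, the main protein of the envelope, had a change of 0.09, 0.20 and 1.14 ± 0.29 (adjusted p = 0.65 at 72 h). Of 11 epidermal transcription factors the medians were 0.13, -0.11 and -0.22 in skin, and of 13 genes of adherens and tight junctions 0.03, -0.34 and -0.02. The 8 hemidesmosome genes were at 0.16, 0.11 and 0.25. In each of these 3 lists 0 were called by limma, with 1, 2 and 2 transcription factors, 0, 2 and 2 junction genes and 0, 0 and 1 hemidesmosome genes at an unadjusted p under 0.05, beside 4.37%, 6.71% and 7.39% of all features. The 7 neutrophil marker genes averaged -1.32 to -0.90 in control skin and -0.76 to -0.25 at 12 h, and their part in the values above was not tested.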

How the data were processed

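Each sample was 1 array of pooled RNA. Deposited were log10 ratios, Cy5 over Cy3, from Agilent Feature Extraction per the submitters' processing notes. Its version and its background and dye steps are not given in the sources used here. Per the labels, lung RNA was in Cy3 and skin RNA in Cy5, so lung values were turned in sign. All were multiplied by 3.322 to log2 and centred on each array's median, and the probes of a gene were averaged (55 probes for 54 genes, named from the platform annotation and checked by Entrez ID, with 0 symbols changed).

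limma 3.58.1 in R 4.3.3 was fitted per tissue to 12 arrays with time as group and strain as a block (6 residual degrees of freedom), and to all 24 with strain blocks kept apart by tissue (12 residual degrees of freedom), with Benjamini-Hochberg adjustment over 8750 features and a threshold of 0.05. Strain is what the replicate number stands for and is a factor of the design. Deviations from group means correlated between pools of 1 strain at -0.052 to 0.71 in lung and -0.048 to 0.68 in skin. The fits were tested on simulated data. Permutation tests and figures used Python 3.11.15 with numpy 2.4.6 and matplotlib 3.10.9.

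Genes named with values were those called in any test, up to the 10 smallest p per contrast, the 2 with the smallest p in each tissue and time, and the highest and lowest of each family. Others named were chosen after their values were seen. The families, lists and tests were chosen with earlier results of these data known. Alternatives left out the strain block, centring, 1 array or 1 strain, used quantile scaling, the groups compared alone or single probes, set ratios of 0 or at the limit to missing, dropped features with a ratio of 0, and, in lung, blocked or left out the 4 arrays that differed from the rest. The number of arrays limits the precision.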

Additional observations from a re-analysis of the deposited data

How the results depend on the processing

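Under the alternatives run, the counts of 0 called genes in skin, in lung and for the difference between the tissues remained 0, also with no replicate block and without 1 array or strain. The count higher in control skin was 31 to 35 with other settings and the count higher in lung was 7. For the 2 leading genes of each time and tissue, the 17 genes tested between control tissues and the 3 strain calls, 472 repeats were run. None changed direction, but the F test of strain has no direction to change. The leading genes had no call to lose, and 0 repeats gained one. A call was lost in 21 repeats, all without 1 array or strain, as given with each gene. In lung the strain count was 2 to 3 with other settings and 0 to 2 without 1 array, and in skin it was 1 and 0 to 4. The median change in lung at 72 h, -0.02, became 0.0313 with no centring, -0.0571 with quantile scaling, -0.0501 with ratios of 0 missing, -0.0535 by probe, -0.0535 without features that held a ratio of 0 and -0.0649 without the 4 arrays that differed from the rest. The last of these values had only the C57BL/6J pool at 72 h. Without 1 array or strain the median was -0.0594 to -0.00053. The skin medians were then 0.0104 to 0.203 at 1 h (highest without the C57BL/6J control), -0.227 to 0.125 at 12 h (highest without C57BL/6J) and -0.278 to -0.0369 at 72 h (nearest 0 without C3H/HeMs). The cause was not tested. Genes at the ratio limit have bounds only.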

Other observations

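Several genes outside the families followed the hair-shaft genes over the 12 skin arrays. Their choice followed a look at their values: they are among the 12 named genes whose skin profile correlated best with the mean of the 6 keratin-associated genes, among 5854 compared. Foxn1, the transcription factor of hair differentiation that is lost in nude mice, ranked 5 and was between 2.52 and 3.79 on the 5 arrays with high keratin-associated genes and between 1.15 and 3.09 on the other 7. Chac1, a glutathione-degrading enzyme, was between 3.72 and 4.85 on the 5 and between 0.83 and 2.57 on the 7. Ctse, the aspartic protease cathepsin E, was between 0.49 and 1.79 and between -2.19 and -0.79, and Sct, the hormone secretin, between 0.44 and 1.55 and between -0.48 and 0.09. Zdhhc13, a palmitoyltransferase, was between 2.19 and 2.80 and between 1.18 and 1.85. Chac1, Ctse, Sct and Zdhhc13 did not overlap between the 2 sets of arrays, while Foxn1 did. The genes were ranked and the arrays divided by the same mean, so that these ranges describe the choice and support no link. The share of all features without overlap was not counted. These arrays were set apart by the keratin-associated genes and are not groups of the study.

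The 7 hair follicle genes had median changes in skin of 0.03, -0.69 and -0.08 at 1 h, 12 h and 72 h. At an unadjusted p under 0.05, 1 was lower at 1 h, 0 passed at 12 h, and 1 was higher and 2 lower at 72 h. The shares of all features under it were 4.37%, 6.71% and 7.39%. Chosen after the values were seen, Crym, a thyroid hormone-binding crystallin, had changes in skin of -1.48 ± 0.41 at 1 h, -0.88 ± 0.41 at 12 h and -2.14 ± 0.41 at 72 h (limma adjusted p = 1.0, 0.755 and 0.561). Eda, the ligand ectodysplasin, had a change of 1.77 ± 0.35 at 72 h (adjusted p = 0.561) and by 0.16 and -0.25 at the earlier times. Lcn2, a secreted iron-binding protein of neutrophils and stressed epithelium, had a change of 2.24 ± 0.50 at 12 h in skin (adjusted p = 0.298), beside 0.44 and 0.10 at 1 h and 72 h, and a median of 0.22 over the 7 neutrophil genes at 12 h. None of these passed.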
